A study of Rattus norvegicus with 9 samples.

Results

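Inhba encodes the βA subunit of activin, and its messenger RNA was followed here through 9 libraries of HBZY-1, a rat mesangial cell line. Mesangial cells hold the capillaries of the glomerulus together, contract and lay down its matrix. It is 1 of the 30560 genes in the deposited gene table, carried there under the identifier ENSRNOG00000014320. Of the 3 groups, the first consisted of cells labelled with a high dose of water extract of Poecilobdella manillensis (a blood-feeding leech) lyophilized powder, the second was the LPS-induced model and the third was control, with 3 biological replicates each. LPS (lipopolysaccharide, from the outer membrane of Gram-negative bacteria) provokes inflammatory responses. Dose and exposure time, whether the extract cells also received LPS, and what the control cells received are not stated in the labels. All cells are of a single line, and nothing in the labels says whether replicates were cultured on separate days.

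The gene was chosen by its measured values: of the genes lower in extract than in LPS cells it had the smallest p. All its values below are therefore a description, and no test of them is given. The name Inhba comes with the choice of the gene, since the deposited tables do not pair identifiers with names. For the same reason its receptors, binding proteins, SMAD mediators and target genes, and the markers of mesangial and other cells, were not analysed here, and the labelled cell type was not checked against markers.

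As background, the βA chain is made as a precursor that pairs through a disulphide bond and is cleaved by furin-like proteases. A βA homodimer is activin A, βA joined to βB is activin AB, and βA joined to the inhibin α chain is inhibin A, which opposes activin. Activin A binds a type II receptor (ACVR2A or ACVR2B), which recruits the type I receptor ACVR1B and leads to phosphorylation of SMAD2 and SMAD3, and follistatin binds activin and blocks it. Activin A is released early in the inflammatory response to LPS in animals, and in the kidney it has been studied as a factor in injury, repair and fibrosis. RNA for 1 subunit does not show which dimer was made or secreted.

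The proximal promoter is shown because activin βA promoters have been studied for cyclic-AMP response. Whether its start is also the start of the RNA measured below is not known. The sequence is from RefSeq (build GRCr8, minus strand, chr17:53804509-53804758), matched by symbol, and gives the 250 bases before the start that RefSeq's promoter table uses. RefSeq's record of the gene also extends upstream of that start and lists 5 transcripts, 1 curated and 4 predicted. Capitals mark matches to the TATA motif (TATAAA), to the CCAAT motif and to TGANGTCA, which is the cyclic-AMP response element TGACGTCA with 1 base left free. The sequence runs 5′ to 3′.
Inhba promoter: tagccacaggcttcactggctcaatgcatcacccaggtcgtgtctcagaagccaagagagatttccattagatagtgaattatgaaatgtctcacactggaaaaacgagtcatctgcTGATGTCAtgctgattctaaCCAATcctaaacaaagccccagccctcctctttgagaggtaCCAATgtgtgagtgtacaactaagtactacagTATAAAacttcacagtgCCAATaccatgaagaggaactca

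Both strands were searched. Counted from the base before the start as -1, TATAAA begins at -40, the CCAAT matches begin at -113, -72 and -23, and TGATGTCA begins at -133. Among 33469 rat promoters of the same length, TATAAA occurred in 12.9%, CCAAT in 34% and TGANGTCA in 8.88%. The exact TGACGTCA (found in 1.59% of promoters and contained in TGANGTCA), the AP-1 element TGANTCA (6.34%), a shortened NF-kB element GGNNTTTCC (5.19%) and the SMAD palindrome GTCTAGAC (0.173%) had no match in this window. Its GC content was 43.6%, against a median of 51.2% over those promoters. Only the cyclic-AMP element was searched both exactly and with a base left free, and forms shorter than the SMAD palindrome were not searched. Which motifs match thus depends on the patterns chosen. These are matches of letters only, and no binding or promoter activity was measured.

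Inhba RNA was abundant in every library, lowest in extract cells, highest in LPS cells and intermediate in control cells. In extract cells it stood at 254.52, 252.07 and 231.8 TPM (a measure relative to all RNA of a library, with 1000000 as the sum over genes) in replicates 1, 2 and 3. In LPS cells the values were 976.87, 1010.62 and 969.28 TPM. In control cells they were 476.89, 498.73 and 482.57 TPM. The 3 groups do not overlap, and the ranges within them are narrow. The smallest gap between groups, 222.37 TPM between the highest extract and the lowest control library, is larger than the widest range within a group, 41.34 TPM among the LPS libraries.

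**Figure D1:**
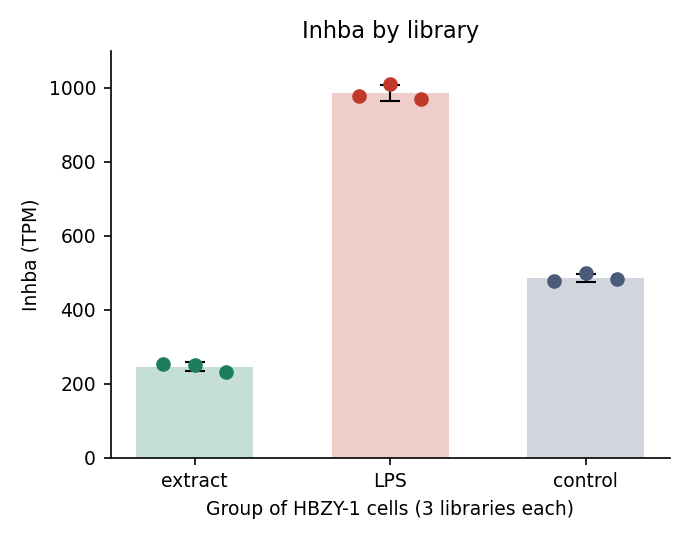
Inhba in TPM for each library (points) of the extract, LPS and control groups, with the group mean (bar) and SD (error bar, n = 3 each). Extract libraries lie between 231.8 and 254.52 TPM, LPS libraries between 969.28 and 1010.62 TPM and control libraries between 476.89 and 498.73 TPM, with no overlap.

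Extract cells averaged 246.1 ± 12.5 TPM, LPS cells 985.6 ± 22.0 TPM and control cells 486.1 ± 11.3 TPM (SD, n = 3 each). The extract mean was 0.25 times the LPS mean, and single extract libraries ranged from 0.229 to 0.263 times a single LPS library. LPS cells held 2.03 times the control mean, with ratios of single libraries from 1.94 to 2.12. The extract mean was 50.6% of the control mean, with ratios of single libraries from 0.465 to 0.534. The extract group was thus below the level of control cells and not only below that of LPS cells. The 3 comparisons share libraries and are not separate observations. In RNA from whole cultures, fewer cells that express Inhba and less Inhba RNA per cell cannot be told apart.

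On the log2(TPM + 1) scale the difference was -1.998 ± 0.0396 for extract minus LPS (SE from limma, which pools the replicate spread of all groups and moderates it by that of other genes). It was 1.02 ± 0.0396 for LPS minus control and -0.98 ± 0.0396 for extract minus control. The LPS level stood about as far above control as the extract level stood below it: the sum of these differences was 0.04 ± 0.069 (SE). This near symmetry moved with the scaling of the libraries. With median-of-ratios rescaling, which sets the typical gene equal in all libraries, LPS minus control was 1.113, extract minus control was -0.9334 and their sum 0.18. The median gene differed by 0.04 for extract minus LPS, -0.08 for LPS minus control and -0.04 for extract minus control.

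**Figure D2:**
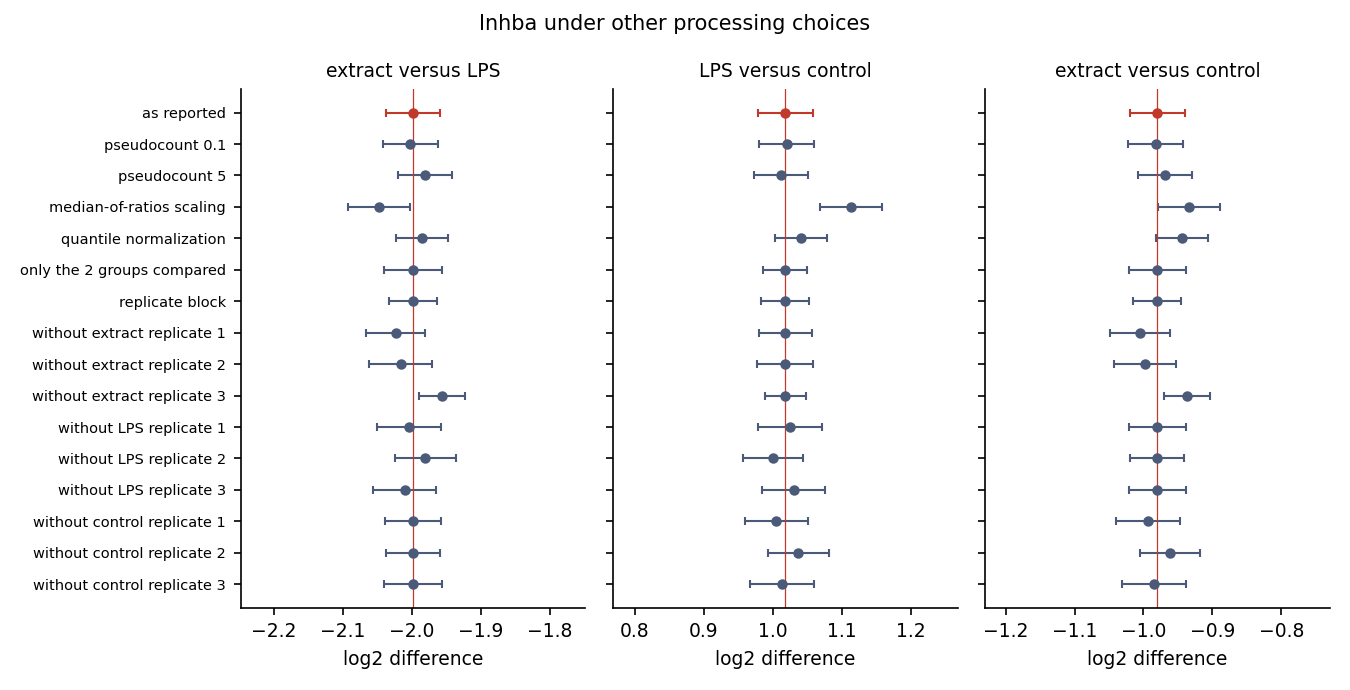
Difference of Inhba on the log2 scale in the 3 comparisons (point, with SE) as reported (red) and under the other processing choices, including the omission of each library. Other filters on gene level, which leave these differences unchanged, are not shown. Extract minus LPS lies between -2.047 and -1.956, LPS minus control between 1.0 and 1.113, and extract minus control between -1.005 and -0.9334.

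The transcript table gave no further division of this signal. Transcripts were linked to Inhba by value, without a map of transcripts to genes. A single transcript, ENSRNOT00000019272, had values equal to the gene's in all 9 libraries. It thus holds 100% of the gene's TPM by the rule that picked it. Any other transcript of the gene at 0 TPM would not be seen this way. Whether start site or splicing changed among the RefSeq transcripts was therefore not tested. No other gene had values identical to those of Inhba. The labels do not say whether the libraries kept strand, so reads from an antisense RNA could not be told apart.

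Inhba was among the more abundant genes of these cells throughout. It was the 542nd, 533rd and 587th most abundant gene in extract replicates 1, 2 and 3. In LPS replicates 1, 2 and 3 it was the 152nd, 147th and 152nd, and in control replicates the 288th, 280th and 285th. Between 3.42% and 3.79% of the genes above 0 TPM exceeded it in extract libraries, between 0.935% and 0.962% in LPS libraries and between 1.78% and 1.83% in control libraries. These ranks are of TPM, which is scaled by transcript length. Inhba made up 0.0246% of all TPM in extract, 0.0986% in LPS and 0.0486% in control cells.

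**Figure D3:**
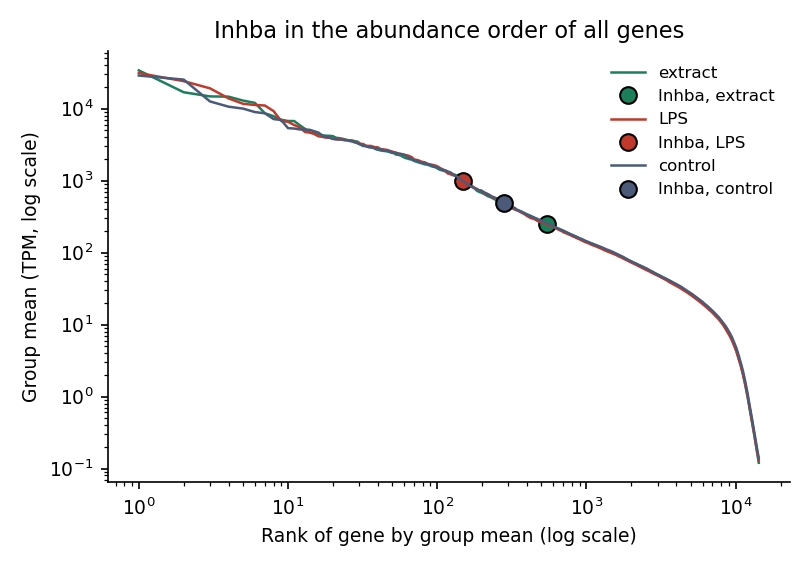
Group mean in TPM of every gene (lines, log scale) against its rank within the group (log scale), with Inhba marked by a circle. By group mean Inhba ranks 547th in extract, 149th in LPS and 281st in control cells, while the curves of the groups lie nearly on each other around it.

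The replicate spread of Inhba differed between the groups. Its coefficient of variation was 5.07% in extract, 2.23% in LPS and 2.33% in control cells. It was set beside the 200 genes nearest to it in mean level over all 9 libraries (372 to 878 TPM). Inhba itself lay below that range in extract cells (246.1 TPM) and above it in LPS cells (985.6 TPM), so the levels are alike only in control cells. The median coefficient of variation of these genes was 2.47% in extract, 3.66% in LPS and 3.38% in control cells. In extract cells 179 of these 200 genes varied less than Inhba, against 47 in LPS and 73 in control cells. The extract spread comes mainly from replicate 3, at 231.8 TPM, which lies below the other two at 252.07 and 254.52 TPM. Without it the extract mean was 253.3 TPM.

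The size of the Inhba differences was set beside those of the 12192 genes that averaged 1 TPM or more over the libraries. As many as 49 genes, Inhba included, had an extract minus LPS difference as low or lower. As many as 197 had an LPS minus control difference as high or higher, and 290 an extract minus control difference as low or lower. With a pseudocount of 0.1 in place of 1 these numbers were 116, 261 and 398, and with a pseudocount of 5 they were 24, 114 and 162, since the pseudocount sets how far genes of low TPM spread. Among the 1497 genes that averaged 100 TPM or more the numbers were 6, 20 and 38. Over all 12192 genes, 25% were called lower in extract than in LPS cells, 9.79% higher and 30.9% lower in LPS than in control cells and 29.4% lower in extract than in control cells (limma, Benjamini-Hochberg adjusted p below 0.05). Differences between the groups were thus common among all genes. The shares depend on scaling, most of all for LPS versus control. There 1193 genes were higher and 3769 lower in LPS cells, against 2117 and 2264 with median-of-ratios rescaling. With that rescaling the genes lower in extract than in LPS cells went from 3050 to 3540. Those lower in extract than in control cells went from 3582 to 3020.

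At a pseudocount of 1, the only setting counted, 8 other tested genes went as far as Inhba both ways, or further. That is, they stood as far above control in LPS cells and as far below control in extract cells. Of these 8, 4 had no overlap between the groups, and the other 4 had groups that overlapped and between 3 and 6 of the 9 libraries at 0 TPM. Just 1 of the 8, ENSRNOG00000008478, also averaged 100 TPM or more. It is reported by identifier and was singled out after its values were seen. It stood at 101.54, 99.84 and 83.31 TPM in extract, 733.1, 844.68 and 902.19 TPM in LPS and 190.06, 211.42 and 184.53 TPM in control cells. Its log2 difference was -3.11 for extract minus LPS, 2.07 for LPS minus control and -1.04 for extract minus control, so it departed further in LPS cells than Inhba did and about as far in extract cells.

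The order of Inhba, with every LPS library above every control library and every control library above every extract library, was shared by 548 genes, Inhba included, or 4.49% of those tested. All 6 possible orders without overlap were found, for 3338 genes or 27.4% in all. The most frequent was the opposite one, extract above control above LPS, with 1395 genes or 11.4%. With median-of-ratios rescaling the order of Inhba was held by 959 genes and the opposite order by 1045. Within the 548 genes the median log2 difference was -0.54 for extract minus LPS, 0.21 for LPS minus control and -0.3 for extract minus control, against -1.998, 1.02 and -0.98 for Inhba. Counting Inhba, 13 of the 548 were as low or lower in extract minus LPS and 12 as high or higher in LPS minus control.

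**Figure D4:**
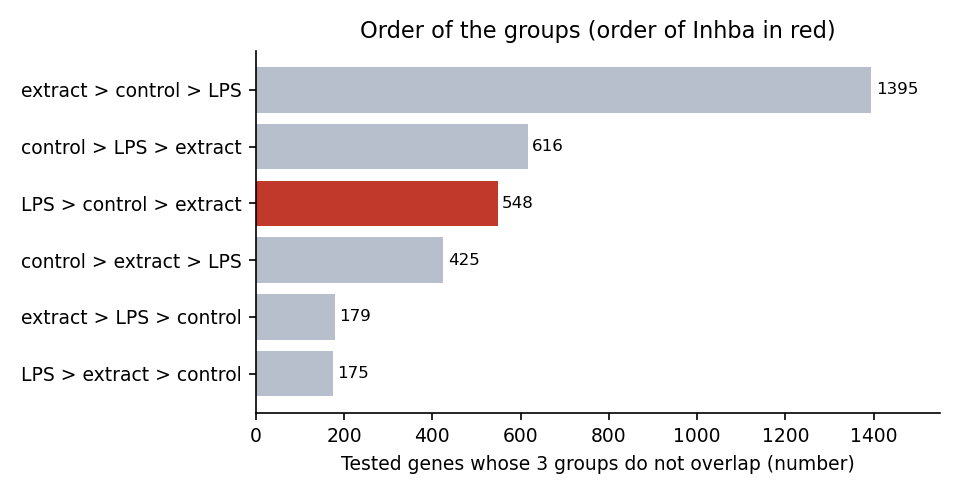
Number of tested genes (bars) in each of the 6 orders of the groups, counted where the libraries of the 3 groups do not overlap. The order of Inhba, LPS above control above extract (red), holds 548 genes and the opposite order 1395.

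Genes that followed Inhba across the libraries were ranked by Pearson's r with it on log2(TPM + 1) over the 9 libraries. All genes were read in the same libraries and on the same TPM scale, and with 3 tight groups a high r says only that the 3 group means are spaced alike, whatever the size of the differences. Of 12191 other genes, 671 (5.5%) had an r of at least 0.9, and 1623 (13.3%) an r of -0.9 or lower. An r of at least 0.99 was found for 10 genes and one of -0.99 or lower for 91. These counts are of TPM as deposited, and r was not computed after median-of-ratios rescaling. The larger number of genes with low r may depend on scaling, as the counts of orders did. The 6 genes most like Inhba had an r of 0.9934 to 0.9974. Their differences were mostly smaller than those of Inhba, from -2.0 to -0.5 for extract minus LPS and from 0.27 to 0.9 for LPS minus control.

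One gene, ENSRNOG00000019661, was among the 6 most like Inhba both in r, at 0.9937, and in the size of its log2(TPM + 1) differences. It stood at 3.21, 3.35 and 2.59 TPM in extract, 15.04, 17.06 and 13.54 TPM in LPS and 7.73, 7.96 and 7.28 TPM in control cells. Its groups do not overlap, and its differences were -2.0 for extract minus LPS, 0.9 for LPS minus control and -1.1 for extract minus control. Its level was far below that of Inhba in all groups, and at low TPM the added 1 makes differences look smaller. In TPM its extract mean was 3.05 against 15.21 in LPS cells, a lower ratio than that of Inhba. The likeness in size of extract minus LPS therefore holds on the log2(TPM + 1) scale and not for the ratio of TPM. For LPS against control its means were 15.21 and 7.657 TPM, a ratio close to that of Inhba. The gene nearest to Inhba in size had an r of only 0.3739, with overlapping groups and with LPS libraries at 77.53, 0.0 and 5.44 TPM.

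The 6 genes with the lowest r, from -0.9983 to -0.9964, were lowest in LPS cells and highest in extract cells. Their log2 differences ranged from 0.66 to 1.32 for extract minus LPS, from -0.62 to -0.36 for LPS minus control and from 0.29 to 0.7 for extract minus control. The first of them, ENSRNOG00000003208, stood at 15.27, 15.64 and 16.22 TPM in extract, 5.72, 5.71 and 5.71 TPM in LPS and 9.37, 9.41 and 9.16 TPM in control cells. It is a mirror image of Inhba in order, with smaller steps on the log2 scale. Identifiers other than that of Inhba carry no name here, and nothing is said of their function.

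**Figure D5:**
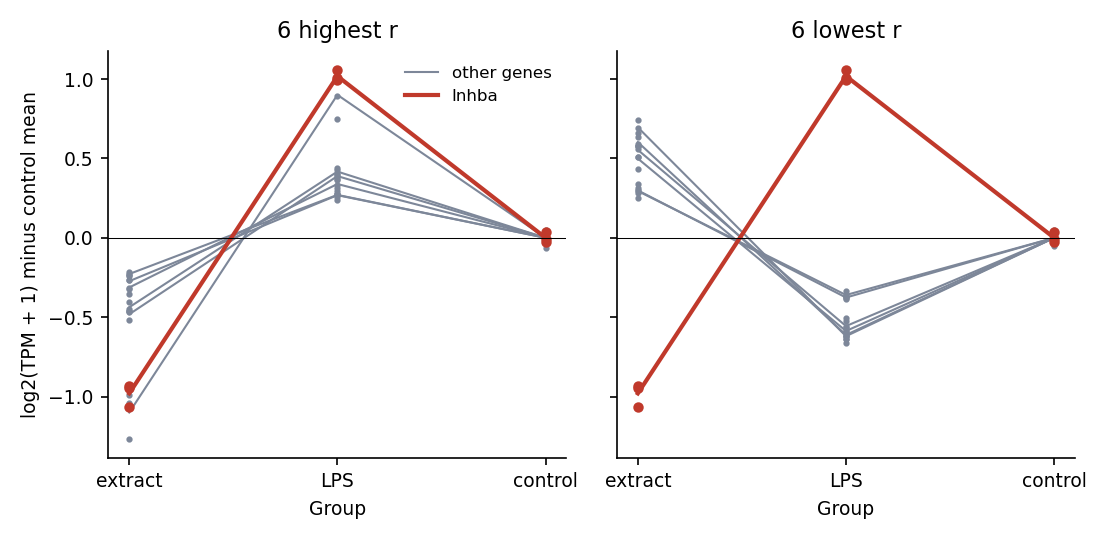
log2(TPM + 1) minus the control mean in extract, LPS and control cells for Inhba (red) and for the 6 genes with the highest r (left, grey) and the 6 with the lowest r (right, grey). Points are libraries and lines join group means. The grey genes on the left keep the order of Inhba, mostly with smaller steps, and those on the right show the opposite order.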

How the data were processed

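RNA from 9 HBZY-1 libraries was measured by sequencing. The authors deposited TPM per gene (30560) and per transcript (54991), rounded to 2 decimals, and fastp, HISAT2 2.1.0 and RSEM 1.3.3 are named, per the submitters' processing notes, without roles or settings. The genome build is not given in the sources used here. TPM does not keep sequencing depth. The depth per library is therefore unknown and no counting interval is given, and precision comes from the replicate spread (3 libraries per group). That spread may be technical, which is then all that p-values measure. Columns were matched to libraries by the code that opens each title.

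Values were taken as log2(TPM + 1), a scale that makes changes at low TPM look smaller. The 12192 genes averaging 1 TPM or more were fitted with limma 3.58.1 in R 4.3.3 (1 mean per group, mean-variance trend, two-sided, Benjamini-Hochberg adjustment over all genes tested). The procedure was tested on simulated data with independent noise and few changed genes, all in the LPS group. That test does not show how it performs where differences are as common as here. Genes most like Inhba were the 6 with the highest and the 6 with the lowest Pearson's r over 9 libraries, and, among genes of at least 5 TPM, the 6 nearest in the pair of log2 differences LPS minus control and extract minus LPS. Alternatives were other pseudocounts, filters, scalings, samples in the fit, a replicate block and leaving out each library. The reference table of 47357 rat genes (GRCr8) holds no Ensembl identifier and 0 matched, so 13 gene lists fixed by symbol were not analysed here. The member, lists and rules were chosen with earlier results of these data known. Promoter sequences are RefSeq's, on GRCr8.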

Additional observations from a re-analysis of the deposited data

How the results depend on the processing

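The differences of Inhba kept their direction under all alternatives run. They moved by more than the spread of 1 library with median-of-ratios scaling only, to -2.047 for extract minus LPS and 1.113 for LPS minus control, with mean levels of 1016 TPM in LPS and 468.9 TPM in control cells, because that scaling multiplies the libraries. Leaving out each library gave -2.023 to -1.956 for extract minus LPS, 1.0 to 1.037 for LPS minus control and -1.005 to -0.9374 for extract minus control, and the means ranged from 241.9 to 253.3 TPM in extract, 973.1 to 993.7 TPM in LPS and 479.7 to 490.6 TPM in control cells. The number of genes called kept within 1.5 times in each comparison under all alternatives run. Within it, the LPS versus control split of 1193 higher and 3769 lower became 2117 and 2264 with median-of-ratios scaling and 1940 and 2402 with quantile normalization. The count of 548 genes in the order of Inhba became 959 with median-of-ratios scaling, an alternative chosen after seeing the data. Of the 6 genes with the highest r, 5 remained with a pseudocount of 0.1 and 0 were among the 6 highest by Spearman's rho, and likewise 5 and 0 of the 6 lowest: their rho was 0.883 to 0.967 and -0.967 to -0.917, and 563 and 1101 genes had a rho as far from 0. The replicate block cannot change the Inhba differences, because each group holds each replicate number once, and it can move only their SE, which was 0.0348. With it 7072, 4658 and 6070 genes were called in extract versus LPS, LPS versus control and extract versus control, against 7240, 4962 and 6298 without it. The numbers were not taken to pair the libraries: deviations of same-numbered libraries correlated at -0.055 to 0.095, those of differently numbered ones at -0.11 to 0.089. The alternatives for the pathway lists were not run, since no identifier was matched to a name. Without depth, no counting error can be set beside the TPM values.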
